A study of Mus musculus with 9 samples.

Results

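The putative female germ cells (PFGC) of this mouse study were placed against their 2 reference cell populations at once, gene by gene. The contrast set the mean of the 3 PFGC arrays against the midpoint between the means of the 3 spermatogonial stem cell (SSC) arrays and the 3 oocyte arrays, each group at equal weight on the log2 scale. All 9 of the 9 arrays of the series entered the same fit. All cells came from strain C57BL/6. The labels describe the PFGC and the oocytes as magnet sorted and the SSC as cultured, and give no other treatment for any of the groups. The sorting antibody, the age and sex of the animals and the organ of origin are not given in the sources used here, and nothing in the labels says whether the replicates were separate cultures or animals. The p-values therefore measure the spread between these arrays, which may be technical.

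Spermatogonial stem cells renew the germ line of the testis and depend on the growth factor GDNF and its receptors Gfra1 and Ret. Oocytes stock maternal transcripts for the egg coat and the early embryo. A gene sits at the midpoint if its PFGC level is the mean of the 2 log2 levels. This is not the place of an even mixture of cells. Mixed RNA averages on linear intensity, which lies above the log2 midpoint wherever the populations differ. A gene can also sit at the oocyte level, at the SSC level, between them, or outside both, and genes were sorted into these classes by 2 calls, PFGC against SSC and PFGC against oocytes.

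The arrays detected 17631 to 18919 of 45281 probes each, and 11077 genes were tested. Across genes, PFGC arrays correlated with oocyte arrays at 0.956 to 0.972 and with SSC arrays at 0.858 to 0.888, a description of the arrays and not a test. SSC replicate 2 stood apart: 153 genes were more than 1 log2 unit higher on it than on both other SSC arrays, against 0 to 34 such genes on each of the other 8 arrays. Those genes include Ldhc, the sperm-type lactate dehydrogenase, and results that rest on this array are given with and without it. Of the markers checked, 1 of SSC and 1 of oocytes are given here, and none was set for PFGC. The SSC arrays also carried Sertoli genes, and the oocyte arrays somatic and neutrophil genes, as given below. Gfra1 measured 5.88, 6.26 and 5.76 on PFGC arrays, against 9.11, 8.63 and 8.60 on SSC arrays and 4.30, 4.70 and 4.59 on oocyte arrays, where it was not detected. Ooep, a maternal-effect gene of the egg cortex, measured 13.65, 13.72 and 13.55 on PFGC arrays, against 7.28, 7.29 and 7.31 on SSC arrays and 13.45, 13.55 and 13.55 on oocyte arrays. All such levels are log2 of normalised intensity, and in RNA from many cells, fewer cells of a type and less RNA per cell cannot be told apart.

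PFGC lay outside both populations for few genes and far more often at the oocyte end. Of 11077 genes, 84 (0.758%) were called above both SSC and oocytes and 23 (0.208%) below both. Another 877 genes (7.92%) lay between, called apart from each on opposite sides. At the oocyte end, meaning called apart from SSC only, lay 4786 genes (43.2%), and at the SSC end, called apart from oocytes only, lay 374 genes (3.38%). The remaining 4933 genes (44.5%) were called in neither comparison. An end is the absence of a call and not a proof of equality. For 4589 of the 4786 oocyte-end genes the 95% interval of PFGC minus oocytes lay within 1 log2 unit on either side of 0. For 292 of the 374 SSC-end genes the same held against SSC. That bound is wide, since the median size of oocytes minus SSC over all genes was 0.58 log2, with a median SE of 0.15. It therefore does not show on its own which end PFGC was nearer. The calls behind the classes used limma with Benjamini-Hochberg adjusted p under 0.05: 5770 genes (52.1%) differed between PFGC and SSC and 1358 (12.3%) between PFGC and oocytes, 347 of them at least 2-fold higher in PFGC (3.13%) and 36 at least 2-fold lower (0.325%). Both comparisons share the PFGC arrays, so an error in a PFGC mean enters both. The same-numbered arrays deviated together, but so did arrays numbered 1 and arrays numbered 2, and the main fit had no block. With the replicate number as a block, 2334 genes differed between PFGC and oocytes. In that fit 143 genes lay above both, 101 below both, 1450 between and 640 at the SSC end. Of the 84 genes above both, 83 were above both with the block as well, as were all 23 below both and 875 of the 877 between. The classes that rest on a call against oocytes shrank without any 1 oocyte or PFGC array: 401, 414, 348 and 518 genes lay between without oocyte replicate 1, oocyte replicate 2, PFGC replicate 2 and PFGC replicate 3. At the SSC end lay 120, 128 and 207 genes without oocyte replicates 1, 2 and 3, and 123 and 205 without PFGC replicates 2 and 3. Without SSC replicate 3 these 2 classes grew instead, to 1047 genes between and 499 at the SSC end.

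**Figure D1:**
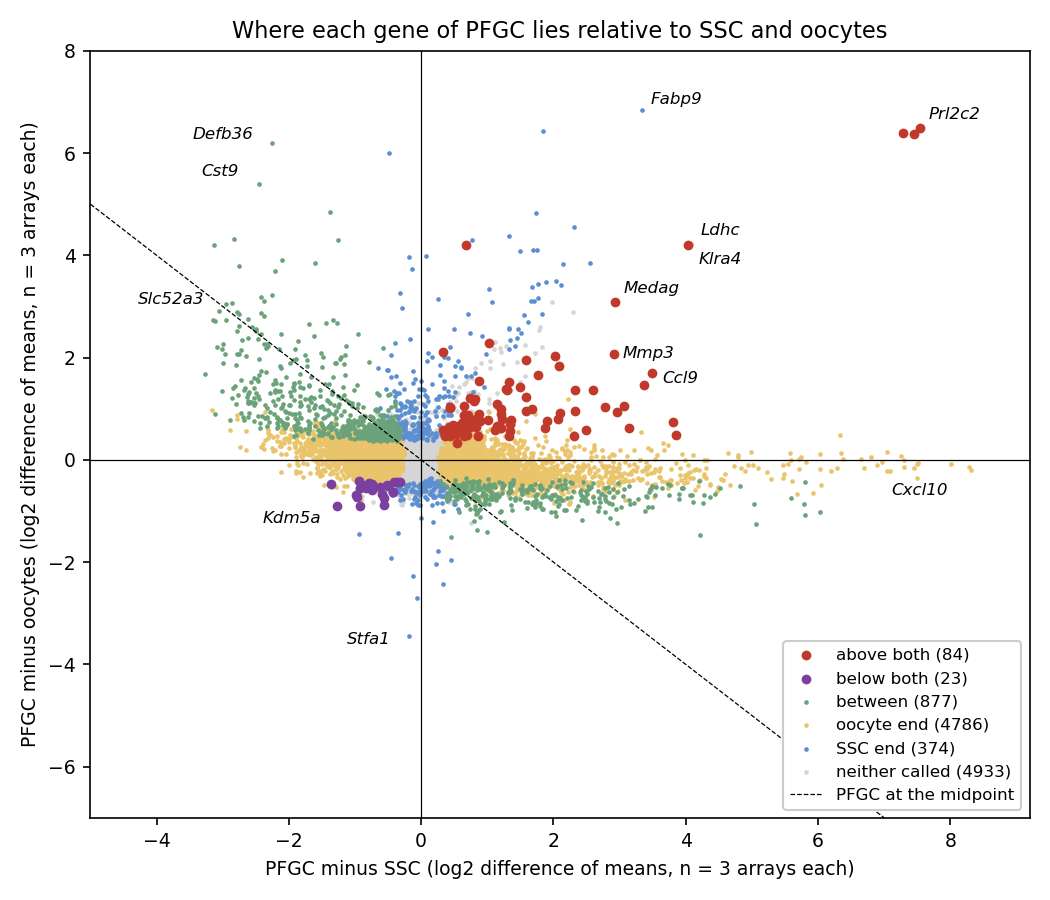
Each point is 1 of 11077 genes, with PFGC minus SSC on the horizontal axis and PFGC minus oocytes on the vertical axis, both as log2 differences of means of 3 arrays, coloured by class. The 84 genes above both fill the upper right, the 23 below both stay close to the centre, and the oocyte-end genes form the long horizontal band; the dashed line marks genes at the midpoint, and the points of Ldhc and Klra4 coincide.

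The genes furthest above both were the proliferins, placental hormones of the prolactin family. Prl2c2 measured 12.18, 11.68 and 11.95 on PFGC arrays, against 4.46, 4.36 and 4.37 on SSC arrays, where it was not detected, and 5.28, 5.62 and 5.42 on oocyte arrays. Its departure from the midpoint was 7.02 ± 0.13 log2 (SE, limma adjusted p = 3.87e-10), at least 101-fold above SSC and 90.2-fold above oocytes. Every PFGC array was above every other array by more than 6 log2 units. Prl2c3 measured 12.30, 11.79 and 11.93 on PFGC arrays, against 4.62, 4.57 and 4.49 on SSC arrays and 5.77, 5.52 and 5.63 on oocyte arrays, a departure of 6.91. Prl2c4 measured 11.90, 11.49 and 11.61 on PFGC arrays, against 4.38, 4.41 and 4.36 on SSC arrays and 5.19, 5.25 and 5.39 on oocyte arrays, a departure of 6.83. The proliferin genes are near-identical copies, so 1 transcript can be read by all 3 probes and the 3 values are not 3 separate findings. The rest of the placental and trophoblast list did not follow. Of its 17 tested genes 2 were above both, Prl2c2 and Prl2c3 (against 0.758% of all genes). Another 3 lay between (against 7.92%), 7 at the oocyte end (against 43.2%) and 5 were called in neither (against 44.5%). An "at least" fold sets the PFGC mean against the lowest signal that counted as detected on the arrays of the other group.

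Proliferin expression is known to respond to growth factors, and the AP-1 factors act on the promoters of growth-factor-responsive genes and of the matrix metalloproteinases. Their sites were searched for with the pattern TGANTCA. It allows any base at N, so a match, such as TGAATCA in Prl2c3, need not be an AP-1 site. The RefSeq promoter windows (GRCm38.p6, 250 bases before to 50 after the start) of a proliferin, of a metalloproteinase and of Klra4 are shown as examples of genes at least 4-fold above each reference population, with Mmp3 chosen because its window holds a match. Prl2c3 is read from the minus strand of chr13:12800030-12800329, Mmp3 from the plus strand of chr9:7445572-7445871 and Klra4 from the minus strand of chr6:130067222-130067521. Capitals mark a match to TGANTCA.
Prl2c3: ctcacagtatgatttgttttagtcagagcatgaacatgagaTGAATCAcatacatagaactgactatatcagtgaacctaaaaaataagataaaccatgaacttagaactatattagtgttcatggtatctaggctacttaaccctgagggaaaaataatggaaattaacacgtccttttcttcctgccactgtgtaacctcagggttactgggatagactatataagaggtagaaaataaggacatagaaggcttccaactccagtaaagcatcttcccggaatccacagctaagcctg
Mmp3: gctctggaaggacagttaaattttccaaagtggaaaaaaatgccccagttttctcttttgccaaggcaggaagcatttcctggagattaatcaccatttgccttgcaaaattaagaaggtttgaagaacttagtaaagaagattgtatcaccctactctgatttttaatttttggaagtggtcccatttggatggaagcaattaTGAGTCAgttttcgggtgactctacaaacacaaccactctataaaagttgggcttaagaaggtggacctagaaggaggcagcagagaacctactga
Klra4: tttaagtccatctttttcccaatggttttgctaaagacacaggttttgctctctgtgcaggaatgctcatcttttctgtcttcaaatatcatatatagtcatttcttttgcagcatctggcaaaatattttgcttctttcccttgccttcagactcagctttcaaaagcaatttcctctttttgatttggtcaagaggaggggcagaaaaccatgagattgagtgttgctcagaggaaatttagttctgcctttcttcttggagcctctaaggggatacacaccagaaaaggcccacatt
The match in Prl2c3 starts at -209 and that in Mmp3 at -46 relative to the start, and the Klra4 window holds no match, nor do the windows of Medag and Ccdc184. On both strands, 2 of 6 windows of the genes at least 4-fold above each reference population held TGANTCA, 4 of 27 windows of the genes at least 2-fold above each (14.8%), and 9 of 85 windows of all genes above both (10.6%), against 2565 of 32851 windows of all genes (7.81%). These windows cover 5 of 7 genes, 20 of 23 and 69 of 84, and several windows of 1 gene count separately. The core of the interferon-stimulated response element was in 0 of the 27 windows and in 3.44% of all windows, and the NF-kB site in 1 of 27 and in 1.47% of all. A match is a description of the letters and not of binding.

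Large gaps on both sides were rare beyond the proliferins. Klra4, a receptor of the natural killer lectin family, measured 8.68, 8.74 and 8.47 on PFGC arrays, against 4.53, 4.83 and 4.44 on SSC arrays and 4.21, 4.52 and 4.54 on oocyte arrays, detected on none of those 6. It passed the filter of detection on at least 3 arrays only through the PFGC arrays. Its departure was 4.12 ± 0.13 log2 (SE, adjusted p = 1.34e-08), at least 10.2-fold above SSC and at least 10.7-fold above oocytes. Medag, a gene of adipocyte differentiation, measured 8.78, 8.74 and 8.63 on PFGC arrays, against 5.44, 5.83 and 6.09 on SSC arrays and 5.65, 5.16 and 6.05 on oocyte arrays. Its departure of 3.01 ± 0.19 (SE, adjusted p = 3.49e-06) came from its brightest probe, and another kept probe of the gene gave 0.01. Mmp3, the matrix protease stromelysin 1, measured 7.63, 7.14 and 7.19 on PFGC arrays, against 4.42, 4.35 and 4.43 on SSC arrays and 5.29, 5.32 and 5.14 on oocyte arrays. Its departure was 2.49 ± 0.12 (SE, adjusted p = 4.56e-07), with 1.46 from the lowest of its probes. In each of these genes no PFGC array overlapped either group, which was a condition for choosing the genes named as furthest outside.

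Further genes above both encode a chemokine, a muscle protein and transcription factors. Ccl9, a chemokine for myeloid cells, measured 8.16, 7.96 and 8.08 on PFGC arrays, against 4.46, 4.60 and 4.69 on SSC arrays and 6.39, 6.58 and 6.11 on oocyte arrays. It was at least 6.94-fold above SSC and 3.26-fold above oocytes. Ankrd1, a stress-responsive muscle ankyrin repeat protein and YAP target, measured 8.04, 7.87 and 7.82 on PFGC arrays, against 4.35, 4.76 and 4.54 on SSC arrays and 6.40, 6.37 and 6.57 on oocyte arrays. Twist2, a transcription factor of mesenchyme, measured 8.47, 8.47 and 8.59 on PFGC arrays, against 6.83, 6.81 and 7.40 on SSC arrays and 6.93, 7.03 and 7.29 on oocyte arrays. Its departure was 1.46 ± 0.15 (SE, adjusted p = 8.30e-05), 2.83-fold above SSC and 2.69-fold above oocytes. Rhox5, a homeobox gene of the X-linked reproductive cluster, lay just above SSC and far above oocytes. It measured 9.36, 9.16 and 9.57 on PFGC arrays, against 8.49, 8.55 and 9.02 on SSC arrays and 5.03, 5.40 and 5.06 on oocyte arrays, so it was 1.60-fold above SSC and 18.3-fold above oocytes. Over all 84 genes departures ran between 0.42 and 7.02, and the smaller of the 2 differences between 0.32 and 6.50 log2. Only 23 of the 84 (0.208% of all genes) were at least 2-fold above each reference, 7 of them at least 4-fold.

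**Figure D2:**
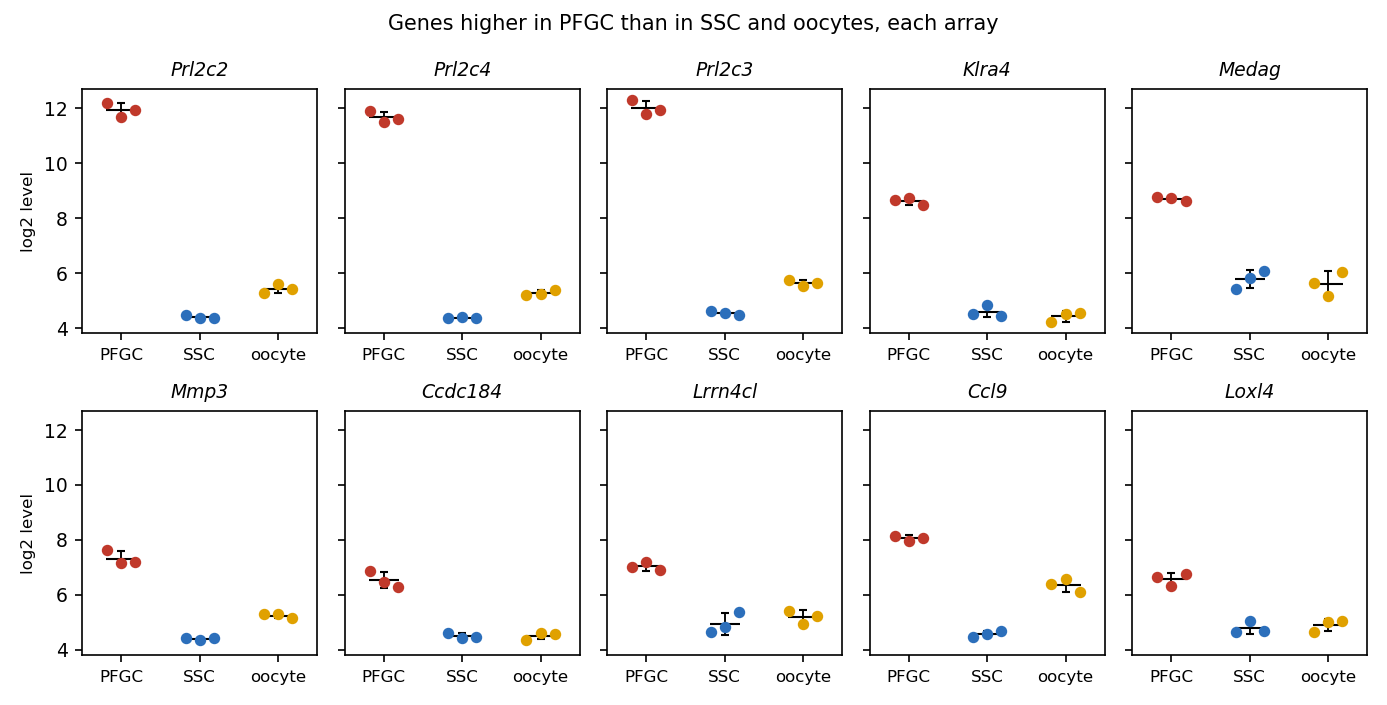
Log2 level on each of the 9 arrays for 10 genes above both, 1 panel a gene, with PFGC, SSC and oocyte arrays in columns; points are arrays and bars the mean and SD of 3. For Prl2c2 all 3 PFGC arrays sit between 11.68 and 12.18 and the other 6 between 4.36 and 5.62.

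The 84 did not rest evenly on the arrays. On each of the 3 PFGC arrays all 84 genes stood above the midpoint, and 83 of the 84 had their 3 PFGC arrays outside both groups. The 84 were selected on the mean of these same arrays, so neither count is separate support. The PFGC arrays were also outside both groups for 308 of 4786 oocyte-end genes and 96 of 4933 genes called in neither. The count of genes above both was 46 without oocyte replicate 1, 51 without oocyte replicate 2, 55 without PFGC replicate 1, 54 without PFGC replicate 2 and 244 without SSC replicate 2. In all 9 of these leave-one-out fits 42 of the 84 genes were above both. The 14 genes chosen by rule as furthest outside, each read by its brightest probe, stayed above both in the other processing settings in which they were tested and in the fits without the arrays of 1 replicate number. The second kept probe of Medag, in contrast, was lower in PFGC than in SSC, at -1.61 log2. Of the 84, 12 genes were detected on no SSC and no oocyte array, 28 on no SSC array and 14 on no oocyte array, these last 2 counts including the 12. The 12 passed the filter of detection on at least 3 arrays only through the PFGC arrays. A high PFGC level was thus set for them by the filter, and their place above both is not support. Of the 27 genes with several kept probes, 23 had every kept probe higher in PFGC than in both populations, with no test of each probe.

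Genes of other cell types were among those above both. In the list of fibroblast, myoid and feeder-cell genes 4 of 35 tested genes were above both (11.4%, against 0.758% of all genes), 3 of them at least 2-fold: S100a4, S100a6, Twist2 and, under 2-fold, the growth factor gene Fgf7. Fgf7 was above both in 12 of the 20 other processing settings that tested it, and in 3 of the 9 leave-one-out fits. S100a6, a calcium-binding protein of stroma and epithelium, measured 11.12, 11.02 and 11.48 on PFGC arrays, against 9.24, 9.63 and 9.98 on SSC arrays and 9.73, 9.98 and 10.21 on oocyte arrays. S100a4, known as fibroblast-specific protein, measured 6.22, 5.74 and 6.14 on PFGC arrays, against 4.93, 4.75 and 4.55 on SSC arrays and 4.49, 4.78 and 4.66 on oocyte arrays, detected on none of those 6. It was tested only because the PFGC arrays detected it, which limits the count of 4 of 35. The list's mean level ran over 9.49 to 9.55 on PFGC arrays, 9.02 to 9.29 on SSC arrays and 9.36 to 9.41 on oocyte arrays, and the collagen genes Col1a1, Col1a2 and Col3a1 were called against neither population. Its median departure was 0.05, against -0.02 over all genes, and its part in the genes above both was not tested. In the endothelial list 2 of 25 genes were above both, Ly6c1 and Gpihbp1, the second of which was above both in 6 of the 20 other processing settings that tested it. Ly6c1, a surface protein of endothelium and blood cells, measured 9.64, 9.67 and 9.80 on PFGC arrays, against 6.23, 6.81 and 6.87 on SSC arrays and 8.49, 8.67 and 8.78 on oocyte arrays. In the surface epithelium list 1 of 22 was above both, Msln, which encodes mesothelin. Stress lists gave 2 of 23 p53 response genes (Phlda3 and Ccng1, neither above both without PFGC replicate 1, and Ccng1 not without any 1 oocyte array), 1 of 29 unfolded protein and ATF4 response genes (Aldh1l2, a mitochondrial folate enzyme) and 1 of 21 oxidative stress genes (Nqo1, a quinone reductase).

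Below both, the differences were small and less stable. None of the 23 genes was 2-fold below each population, and their departures ran from 0.38 to 1.09 log2 in size. Kdm5a, a histone H3K4 demethylase, measured 6.06, 6.03 and 5.78 on PFGC arrays, against 7.49, 7.38 and 6.80 on SSC arrays and 7.29, 6.89 and 6.42 on oocyte arrays. It fell by 1.09 ± 0.20 log2 relative to the midpoint (SE, adjusted p = 0.00433). All 3 PFGC arrays were below the other 6, as the choice of named genes required. Flrt1, a fibronectin-leucine-rich transmembrane protein, measured 9.69, 9.61 and 9.61 on PFGC arrays, against 10.94, 10.99 and 11.09 on SSC arrays and 10.14, 9.99 and 10.19 on oocyte arrays. Itch, a ubiquitin ligase, measured 5.90, 5.96 and 6.15 on PFGC arrays, against 6.85, 6.92 and 7.01 on SSC arrays and 6.66, 6.43 and 6.55 on oocyte arrays. Igfbp3, an IGF carrier, measured 6.81, 7.02 and 6.57 on PFGC arrays, against 7.45, 7.71 and 8.12 on SSC arrays and 7.59, 7.40 and 7.58 on oocyte arrays. Mpeg1, a pore-forming protein of macrophages, was the only gene below both on the macrophage list. No gene of the 23 stayed below both in all leave-one-out fits: the count was 6 without oocyte replicate 1 or 2, 15 without oocyte replicate 3, 5 without PFGC replicate 2 and 38 without SSC replicate 3.

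Against the midpoint itself, 2409 of 11077 genes (21.7%) departed. Of these, 1396 (12.6%) were higher in PFGC and 1013 (9.15%) lower. At 2-fold or more the split was lopsided, with 469 genes (4.23%) higher and 27 (0.244%) lower. Most of the large departures did not mean that PFGC left the range of the other 2 populations. Of the 469, 289 lay at the oocyte end, 69 between, 60 at the SSC end, 44 above both and 7 were called against neither population. Of the 27, 18 lay at the oocyte end, 6 at the SSC end, 2 between and 1 below both. Without PFGC replicate 1 the count of departures was 1441. The direction depends on the scale on which the midpoint is taken. With the midpoint of linear intensities, 693 genes departed upward and 1430 downward, 304 of those downward at least 2-fold, and 1699 genes were called with the same sign on both scales.

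Among the upward departures at the oocyte end, Cxcl10, Cdkn1a and Pramel25 were near or below detection on SSC arrays. Cxcl10, an interferon-induced chemokine, measured 13.64, 13.53 and 13.75 on PFGC arrays, against 5.09, 5.58 and 5.33 on SSC arrays and 13.80, 13.86 and 13.83 on oocyte arrays. Its departure was 4.06 ± 0.12 (SE, adjusted p = 1.02e-08), while PFGC minus oocytes was -0.19 (adjusted p = 0.397). Cdkn1a, the cell cycle inhibitor p21, measured 12.24, 11.98 and 11.74 on PFGC arrays, against 4.43, 4.44 and 4.61 on SSC arrays and 12.47, 12.45 and 12.13 on oocyte arrays. In both genes the PFGC arrays stood with the oocyte arrays, and SSC stood apart. Pramel25, of a family expressed in germ cells and embryos, measured 12.93, 12.92 and 13.02 on PFGC arrays, against 4.61, 4.50 and 4.93 on SSC arrays and 13.08, 13.10 and 13.13 on oocyte arrays. Downward departures at that end were genes of the SSC arrays. Bcl6b, a GDNF-responsive repressor that supports stem cell renewal, measured 6.40, 6.67 and 6.25 on PFGC arrays, against 8.84, 8.81 and 8.94 on SSC arrays and 6.29, 6.35 and 5.95 on oocyte arrays, a departure of -1.09. Lsr, a tight-junction receptor, measured 6.31, 6.87 and 7.31 on PFGC arrays, against 9.76, 9.45 and 9.92 on SSC arrays and 6.21, 6.47 and 6.08 on oocyte arrays. Without PFGC replicate 1, Lsr was called between.

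A position on the line between the populations, 0 at the SSC mean and 1 at the oocyte mean, was computed for the 3135 genes that differed between oocytes and SSC by at least 2-fold with a call (61.7% of all genes carried a call in that comparison). The median position was 0.77, with quartiles of 0.65 and 0.88. It was 0.83, 0.72 and 0.76 on the 3 PFGC arrays. The position differed with direction: 0.82 for 1619 genes higher in oocytes and 0.71 for 1516 genes higher in SSC. On linear intensities these medians were 0.69 and 0.84, so which of the 2 sets PFGC matched more closely turned with the scale, while the median over both sets was 0.77 again. Most positions lay between the ends: 1310 genes at 0.25 to 0.75 and 1468 at 0.75 to 1, with 61 below 0.25 and above 0. Of 48 genes below 0, 3 were called outside both populations, and of 248 above 1, 18 were. Some genes stood close to the midpoint. Slc52a3, a riboflavin transporter, measured 8.74, 9.46 and 9.27 on PFGC arrays, against 11.97, 12.16 and 12.19 on SSC arrays and 6.08, 6.02 and 6.21 on oocyte arrays. Its position was 0.49 and its departure 0.05 ± 0.15 (SE, adjusted p = 0.844). Etv5, a GDNF-regulated transcription factor of SSC renewal, measured 7.60, 8.11 and 7.65 on PFGC arrays, against 9.23, 9.15 and 8.74 on SSC arrays and 6.66, 6.58 and 6.38 on oocyte arrays, a position of 0.50.

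**Figure D3:**
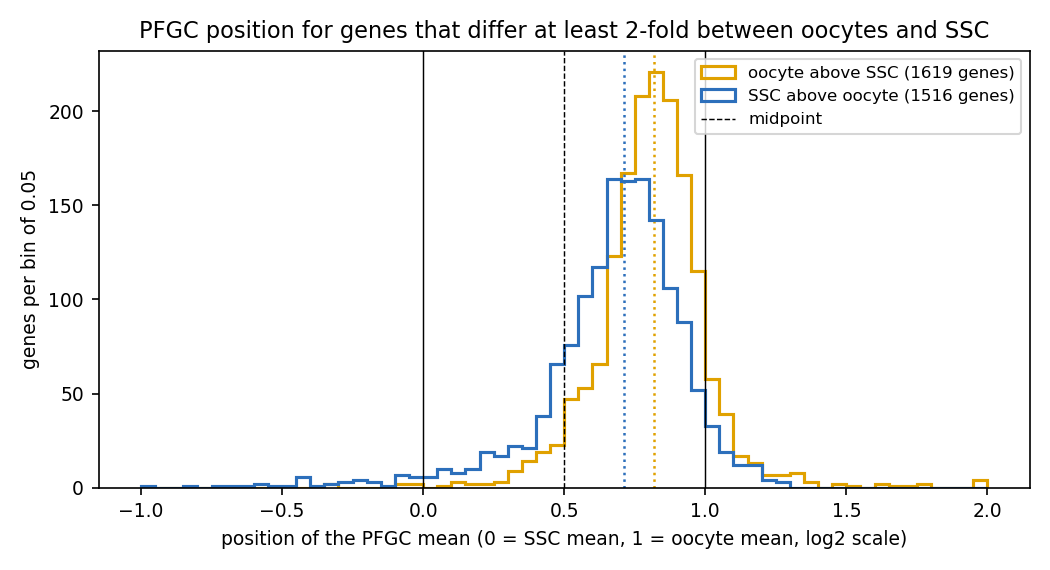
Distribution of position over the genes that differ at least 2-fold between oocytes and SSC, 0 being the SSC mean and 1 the oocyte mean on the log2 scale, for genes higher in oocytes and genes higher in SSC. The 1619 genes higher in oocytes have their median at 0.82 and the 1516 higher in SSC at 0.71.

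The oocyte genes were the list closest to the oocyte end. Of 57 tested, 45 lay at that end, 6 between and 6 were called in neither comparison, and 49 departed upward from the midpoint (against 12.6% of all genes) and 1 downward. The 6 between fell to 1 without PFGC replicate 2, 2 without oocyte replicate 1 or 2, and 3 without PFGC replicate 3 or oocyte replicate 3, and were 12 with the replicate block. Of the 51 positioned genes of the list, 50 were higher in oocytes than in SSC. The median position of the 51 was 0.97, against 0.82 over all genes higher in oocytes and 0.77 over all genes with a position. The list's median departure was 1.96, and its upward departures follow largely from the direction of the difference between oocytes and SSC. The list's mean level ran over 9.55 to 9.62 on PFGC arrays, 5.28 to 5.39 on SSC arrays and 9.75 to 9.82 on oocyte arrays, so the PFGC and oocyte arrays did not overlap. Dppa3, the maternal factor Stella, measured 11.74, 12.05 and 11.93 on PFGC arrays, against 5.86, 5.70 and 5.18 on SSC arrays and 11.38, 11.54 and 11.35 on oocyte arrays. Its PFGC minus oocyte difference of 0.48 did not pass (adjusted p = 0.0986), and without SSC replicate 3 the gene was called above both. Gdf9, the oocyte growth factor that acts on granulosa cells, measured 11.12, 10.51 and 10.81 on PFGC arrays, against 6.26, 5.73 and 5.37 on SSC arrays and 11.59, 11.62 and 11.84 on oocyte arrays. It lay between at 0.85, 1.83-fold below oocytes (adjusted p = 0.0348), a call lost without PFGC replicate 2 or 3 or any 1 oocyte array. Zp3, the sperm-binding protein of the egg coat, measured 7.29, 7.05 and 6.74 on PFGC arrays, against 4.52, 4.39 and 4.32 on SSC arrays and 7.83, 7.77 and 7.95 on oocyte arrays. It was 1.77-fold below oocytes (adjusted p = 0.00699), and no PFGC array overlapped the oocyte arrays. Kit, the receptor that oocytes and differentiating spermatogonia share, measured 7.61, 7.63 and 7.35 on PFGC arrays, against 4.88, 4.94 and 4.40 on SSC arrays, where it was not detected, and 7.74, 7.59 and 7.89 on oocyte arrays.

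Interferon-response genes lay between or at the oocyte end. Of 33 tested, 16 lay between (48.5%, against 7.92% of all genes), 14 at the oocyte end, 1 at the SSC end and 2 were called in neither. The 16 fell to 7 without PFGC replicate 2 and 8 without oocyte replicate 2, and to 11 without PFGC replicate 3, oocyte replicate 1 or oocyte replicate 3. From the midpoint 22 departed upward (against 12.6% of all genes) and 0 downward, with a median departure of 0.73. The list's 28 positioned genes were all higher in oocytes than in SSC. Their median position was 0.79, against 0.82 over all genes higher in oocytes. With PFGC past the midpoint for most such genes, upward departures follow from that direction. The 12.6% over genes of both directions is therefore not a like baseline. The list's mean level ran over 9.14 to 9.39 on PFGC arrays, 6.94 to 7.03 on SSC arrays and 9.74 to 9.78 on oocyte arrays. Usp18, which removes ISG15 from proteins, measured 11.88, 11.50 and 11.42 on PFGC arrays, against 5.60, 5.42 and 5.69 on SSC arrays and 12.71, 12.62 and 12.52 on oocyte arrays. It was 65.4-fold above SSC and 2.03-fold below oocytes (adjusted p = 0.00185). Ifit3, an antiviral tetratricopeptide protein, measured 11.50, 11.19 and 11.13 on PFGC arrays, against 5.62, 5.35 and 5.44 on SSC arrays and 12.38, 12.37 and 12.29 on oocyte arrays. Isg15, the ubiquitin-like modifier, did not share that gap: it measured 12.57, 12.83 and 12.61 on PFGC arrays, against 7.93, 8.01 and 7.71 on SSC arrays and 12.62, 12.52 and 12.59 on oocyte arrays. Antigen presentation by MHC class I had 2 of 15 genes between, chemokines and cytokines 6 of 22, and NF-kB feedback genes and targets 4 of 17, against 7.92% of all genes. Without PFGC replicate 2 these counts were 0, 2 and 0, and without oocyte replicate 2 they were 0, 3 and 0. Upward departures numbered 7, 10 and 11, against 12.6% of all genes, with none downward, and the 11 fell to 7 without PFGC replicate 1. All positioned genes of these lists were higher in oocytes than in SSC, at median positions of 0.82, 0.76 and 0.79. The same limit holds for their upward departures. Akr1c18, the enzyme that inactivates progesterone, also lay between. It measured 8.79, 8.14 and 8.97 on PFGC arrays, against 4.38, 4.49 and 4.41 on SSC arrays and 9.91, 10.20 and 10.21 on oocyte arrays, 2.77-fold below oocytes.

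On the other side, genes of the SSC arrays that stayed partly expressed in PFGC made up 544 of the 877 genes between, against 333 higher in oocytes. Defb36, a beta-defensin, measured 10.74, 11.33 and 11.02 on PFGC arrays, against 13.39, 13.32 and 13.14 on SSC arrays and 4.95, 4.62 and 4.94 on oocyte arrays, where it was not detected. It was 4.77-fold below SSC and at least 56.5-fold above oocytes, at position 0.27. Cst9, a testis cystatin of Sertoli cells, measured 10.21, 11.04 and 10.83 on PFGC arrays, against 13.43, 13.36 and 12.65 on SSC arrays and 5.06, 5.76 and 5.11 on oocyte arrays. PFGC arrays overlapped neither group for these genes. The list of Sertoli cells, the somatic support cells of the testis, showed the same placement. Of 29 tested, 15 lay between (51.7%, against 7.92% of all genes), 9 at the oocyte end, 1 at the SSC end, 1 above both and 3 were called in neither. The list's median departure was -0.35, with 11 genes departing downward (against 9.15% of all genes), 6 without PFGC replicate 1 and 7 without PFGC replicate 3 or oocyte replicate 1. Of the list's 24 positioned genes 1 was higher in oocytes than in SSC, so its downward departures follow largely from that direction. Its mean level ran over 8.37 to 8.65 on PFGC arrays, 9.86 to 9.95 on SSC arrays and 7.20 to 7.24 on oocyte arrays. Cldn11, the tight-junction protein of the blood-testis barrier, measured 11.62, 12.30 and 12.10 on PFGC arrays, against 14.52, 14.23 and 14.40 on SSC arrays and 9.16, 9.13 and 9.30 on oocyte arrays. Rhox8, a Sertoli and granulosa homeobox gene, measured 8.68, 9.41 and 9.27 on PFGC arrays, against 12.15, 12.08 and 12.58 on SSC arrays and 6.14, 6.52 and 6.50 on oocyte arrays. Sertoli markers were thus high on the cultured SSC arrays and at an intermediate level on PFGC arrays, and their part in the other testis genes between was not tested.

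Germ cell genes of the testis were mostly higher in SSC than in oocytes, a set whose median position was 0.71. Of 37 tested genes of undifferentiated spermatogonia, 9 lay between (against 7.92% of all genes) and 19 at the oocyte end (against 43.2%). From the midpoint 13 departed downward (against 9.15%) and 2 upward, with 8 downward without PFGC replicate 1. The list's median position was 0.73, and 4 of its 24 positioned genes were higher in oocytes. Gfra1 was at 0.66, 7.04-fold below SSC and at least 1.69-fold above oocytes. Nanos2, the RNA-binding protein that keeps male germ cells from meiosis, measured 6.78, 6.82 and 7.48 on PFGC arrays, against 8.93, 8.91 and 8.99 on SSC arrays and 5.42, 5.95 and 5.59 on oocyte arrays. Germ cell genes shared by both sexes had 13 of 30 between and a median position of 0.62. Dazl, an RNA-binding protein of germ cells, measured 9.22, 9.42 and 8.76 on PFGC arrays, against 11.74, 11.35 and 11.03 on SSC arrays and 7.91, 8.20 and 7.84 on oocyte arrays. Differentiating spermatogonia had 6 of 14 between and a median position of 0.62, and primordial germ cell genes 5 of 20 (3 without PFGC replicate 2) and 0.72. Of 25 meiotic prophase genes, 11 lay between, at a median position of 0.67. Sycp1, of the synaptonemal complex that holds homologous chromosomes together, sat with oocytes: it measured 9.48, 9.68 and 9.32 on PFGC arrays, against 4.33, 4.54 and 4.32 on SSC arrays and 9.67, 9.59 and 9.71 on oocyte arrays. Syce3, of the same complex, sat with SSC: it measured 10.45, 10.69 and 10.48 on PFGC arrays, against 10.94, 11.79 and 10.34 on SSC arrays and 4.39, 4.54 and 4.67 on oocyte arrays. Stra8, which admits germ cells to meiosis, fell by 0.90 relative to the midpoint and was not detected on oocyte arrays.

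The median positions of the ovarian and vascular lists ran from 0.74 to 0.82. Granulosa and cumulus cell genes, the somatic companions of the oocyte, had 13 of 32 departing upward (against 12.6% of all genes) and 3 downward (against 9.15%, and 5 with the replicate block), with a median position of 0.82, the same as over all genes higher in oocytes. Their mean level ran over 8.77 to 8.92 on PFGC arrays, 7.38 to 7.63 on SSC arrays and 8.96 to 9.05 on oocyte arrays. Steroidogenic genes had 4 of 10 between and a median position of 0.74, against 0.77 over all genes. Endothelial genes had 13 of 25 departing upward, 1 downward and 9 between (against 12.6%, 9.15% and 7.92% of all genes). All 16 positioned genes of that list were higher in oocytes than in SSC. The 9 fell to 3 without PFGC replicate 2 and to 4 without PFGC replicate 3 or any 1 oocyte array. Esm1, a proteoglycan of vessel tip cells, measured 8.81, 8.44 and 8.70 on PFGC arrays, against 4.48, 4.55 and 4.60 on SSC arrays and 9.42, 9.48 and 9.51 on oocyte arrays. Somatic genes of the ovary were thus on the oocyte arrays too, and 1.76-fold lower on PFGC arrays in the case of Esm1 (adjusted p = 0.00213).

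At the SSC end PFGC differed from oocytes with no call against SSC, and for 312 of the 374 genes there SSC differed from oocytes as well. Without SSC replicate 2, 278 of these 374 genes stayed at the SSC end and 79 were called above both. Of 12 neutrophil granule genes tested, 6 lay at the SSC end (against 3.38% of all genes), 2 between, 2 at the oocyte end and 2 were called in neither, 6 departed downward (against 9.15% of all genes) and 0 upward, and the median position was 0.14. Stfa1, a stefin of neutrophils, measured 6.55, 6.71 and 6.44 on PFGC arrays, against 6.79, 7.12 and 6.33 on SSC arrays and 9.94, 10.03 and 10.06 on oocyte arrays. It had the lowest departure of all, at -1.81 ± 0.16 (SE, adjusted p = 2.75e-05), 10.9-fold below oocytes, and without SSC replicate 3 it was called below both. S100a9, a subunit of calprotectin, measured 6.19, 5.90 and 5.98 on PFGC arrays, against 5.89, 6.05 and 5.46 on SSC arrays and 7.96, 8.05 and 8.15 on oocyte arrays. The list's mean level ran over 5.71 to 5.88 on PFGC arrays, 5.34 to 5.99 on SSC arrays and 7.16 to 7.29 on oocyte arrays. Slc4a1, the anion exchanger of red cells, measured 6.04, 5.96 and 6.19 on PFGC arrays, against 5.90, 5.93 and 5.61 on SSC arrays and 7.94, 7.82 and 7.79 on oocyte arrays. Macrophage and leukocyte genes had 5 of 24 at the SSC end, 5 departing downward and 1 upward, but 2 departed downward without SSC replicate 1, PFGC replicate 3, oocyte replicate 1 or oocyte replicate 2, and 3 without PFGC replicate 1 or 2. Uba6, a ubiquitin-activating enzyme, lay at this end from the other side. It measured 12.12, 12.30 and 11.72 on PFGC arrays, against 12.17, 12.93 and 11.47 on SSC arrays and 8.35, 8.50 and 8.09 on oocyte arrays, 13.3-fold above oocytes.

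Genes of spermatocytes and spermatids, the meiotic and post-meiotic male germ cells, were on all 3 PFGC arrays and on SSC replicate 2. Fabp9, a fatty-acid-binding protein of the sperm perforatorium, measured 11.37, 11.52 and 11.48 on PFGC arrays, against 6.56, 12.14 and 5.67 on SSC arrays and 4.66, 4.42 and 4.79 on oocyte arrays, where it was not detected. Ldhc measured 12.05, 12.49 and 12.40 on PFGC arrays, against 5.92, 12.96 and 5.83 on SSC arrays and 7.95, 8.11 and 8.18 on oocyte arrays. Cox8c, a testis subunit of cytochrome oxidase, measured 10.61, 11.17 and 10.93 on PFGC arrays, against 7.84, 11.72 and 7.62 on SSC arrays and 4.57, 4.43 and 4.41 on oocyte arrays. For each of these genes SSC replicate 2 exceeded every PFGC array, and the other 2 SSC arrays stood below every PFGC array. With all arrays none of them was called above both. The departure of Fabp9 was 5.09 ± 1.12 (SE, adjusted p = 0.00983) and that of Ldhc 4.15 ± 1.30 (adjusted p = 0.0466), and the Ldhc call was lost without any 1 of the other 8 arrays. Without SSC replicate 2, 244 genes lay above both (2.20%), 76 of them shared with the 84, and 115 were at least 2-fold above each. Of the 168 genes gained, 131 were among those more than 1 log2 unit higher on that array. Fabp9 was then 40.9-fold above the other 2 SSC arrays, Ldhc 86.6-fold and Cox8c 9.04-fold. Catsperz, of the sperm calcium channel, measured 9.59, 9.91 and 9.90 on PFGC arrays, against 5.79, 10.66 and 6.02 on SSC arrays and 5.02, 5.72 and 4.98 on oocyte arrays. Of the 20 tested genes on the spermatocyte and spermatid list, 0 were above both with all arrays and 9 without SSC replicate 2, while the fibroblast count was 4 of 35 in each case. With all arrays 8 of the 20 departed upward (against 12.6% of all genes) and 0 downward. That count was 15 without SSC replicate 2, 3 without PFGC replicate 1 or 2, 4 without SSC replicate 1 or 3, PFGC replicate 3 or oocyte replicate 1 or 2, and 5 without oocyte replicate 3. The list's mean level ran over 7.32 to 7.44 on PFGC arrays, 6.32 to 7.98 on SSC arrays and 5.70 to 5.88 on oocyte arrays. Whether SSC replicate 2 or the other 2 arrays stand for the cultured SSC cannot be told from the labels.

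**Figure D4:**
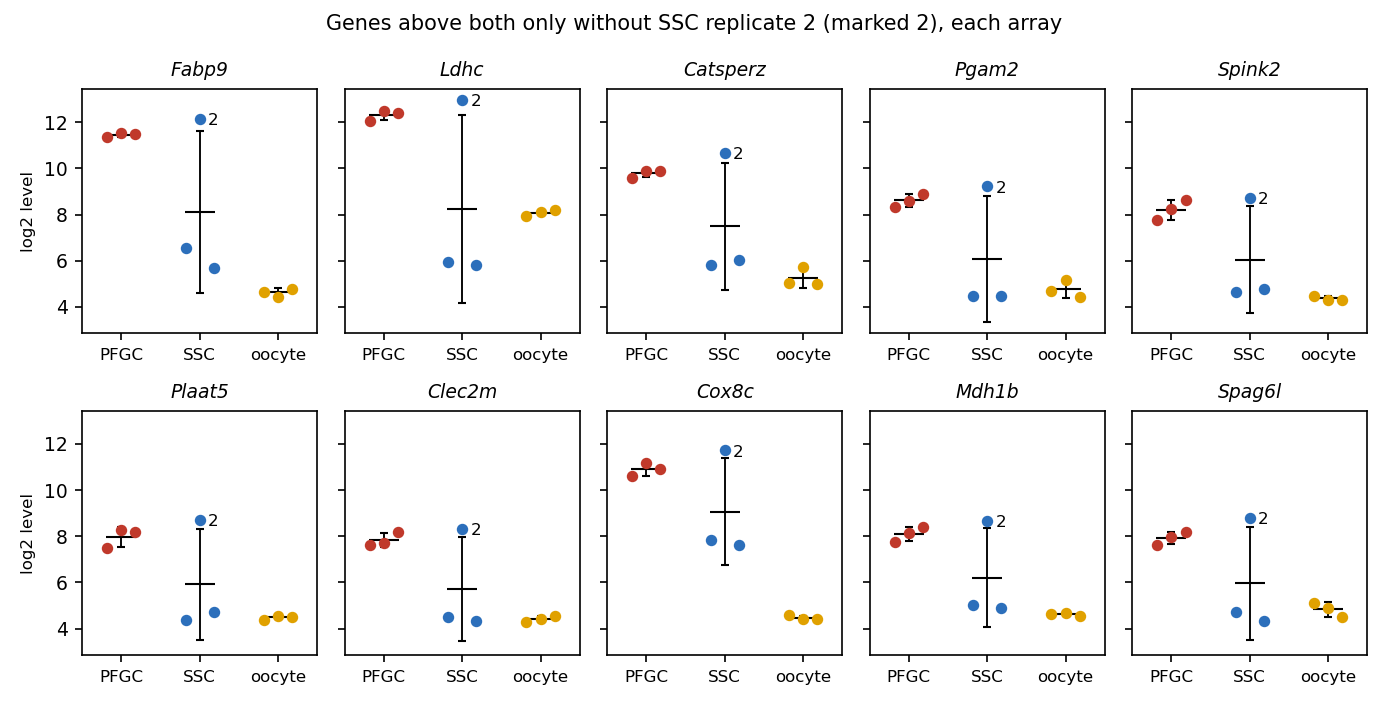
Log2 level on each of the 9 arrays for genes that moved to the class above both when SSC replicate 2 (marked 2) was left out, 1 panel a gene, with PFGC, SSC and oocyte arrays in columns; points are arrays and bars the mean and SD of 3. For Ldhc, SSC replicate 2 sits at 12.96 near the PFGC arrays at 12.05 to 12.49, and the other 2 SSC arrays sit at 5.83 and 5.92.

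Sex chromosome genes sat between and towards the oocyte end. Eif2s3y, a Y-linked translation factor gene, measured 5.72, 5.90 and 5.95 on PFGC arrays, detected on all 3, against 8.42, 8.32 and 9.01 on SSC arrays and 4.31, 4.23 and 4.37 on oocyte arrays, detected on none. It was called between, at position 0.64. Usp9y measured 4.87, 5.28 and 5.70 on PFGC arrays, detected on 2 of 3, against 8.57, 8.47 and 8.18 on SSC arrays and 4.43, 4.42 and 4.31 on oocyte arrays. Kdm5d, also Y-linked, was detected on no PFGC array. Over the 5 Y-linked genes tested, 3 were detected on no PFGC array. Xist, the RNA that silences the inactive X in female cells, measured 11.00, 10.54 and 11.03 on PFGC arrays, against 6.97, 6.92 and 7.37 on SSC arrays and 11.12, 11.22 and 11.43 on oocyte arrays. Of 5 Y-linked genes tested 3 departed downward, 1 without PFGC replicate 1. Of 383 genes tested on the X chromosome, 74 departed downward (19.3%, against 9.15% of all genes) and 46 upward. A transcript of the Y chromosome was thus on PFGC arrays together with Xist at a level 1.32-fold below oocytes, a difference that did not pass (adjusted p = 0.164).

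Over the 41 lists, the median position ran from 0.14 for neutrophil granule genes to 0.97 for oocyte genes among lists with at least 5 positioned genes. Housekeeping lists seldom departed. Proteasome subunits had 0 of 28 departures in either direction, the respiratory chain 1 of 45 downward and 0 upward, and cytoplasmic ribosomal proteins 4 of 45 upward (2 without PFGC replicate 1 or 3, and 11 with the replicate block) and 0 downward, against 12.6% and 9.15% of all genes. Among stress lists, 12 of 23 p53 response genes departed upward and 1 downward, 11 of 29 unfolded protein and ATF4 response genes upward and 0 downward, and 6 of 20 heat shock chaperones upward and 1 downward, against 12.6% and 9.15% of all genes. The 10 and 13 positioned genes of the first 2 of these lists were all higher in oocytes than in SSC, as were 6 of 7 chaperones. Of 25 immediate early genes 5 departed upward and 1 downward (against 12.6% and 9.15% of all genes), but 11 upward with the replicate block and 2 without PFGC replicate 1, PFGC replicate 2 or oocyte replicate 3 and 3 without oocyte replicate 2. Nupr1, a stress-induced transcription cofactor, measured 11.91, 11.62 and 11.63 on PFGC arrays, against 7.08, 7.36 and 7.89 on SSC arrays and 11.92, 12.13 and 11.93 on oocyte arrays. Oxidative stress genes had 7 of 21 upward and 4 downward, and none of the 4 was called without PFGC replicate 1. Pluripotency genes were split, 7 of 19 upward and 6 downward, at a median position of 0.86. Upward and downward departures numbered 4 and 3 of 15 Bcl2 family genes, 4 and 2 of 21 early follicle genes and 0 and 2 of 11 erythrocyte genes. Of 40 replication and mitosis genes 5 departed upward (12.5%, close to the 12.6% of all genes), but 2 without PFGC replicate 1, PFGC replicate 2 or oocyte replicate 1 and 3 without PFGC replicate 3 or oocyte replicate 3. Ccnd1, the G1 cyclin, was called above both with all arrays and at the SSC end without PFGC replicate 3 or any 1 SSC or oocyte array.

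**Figure D5:**
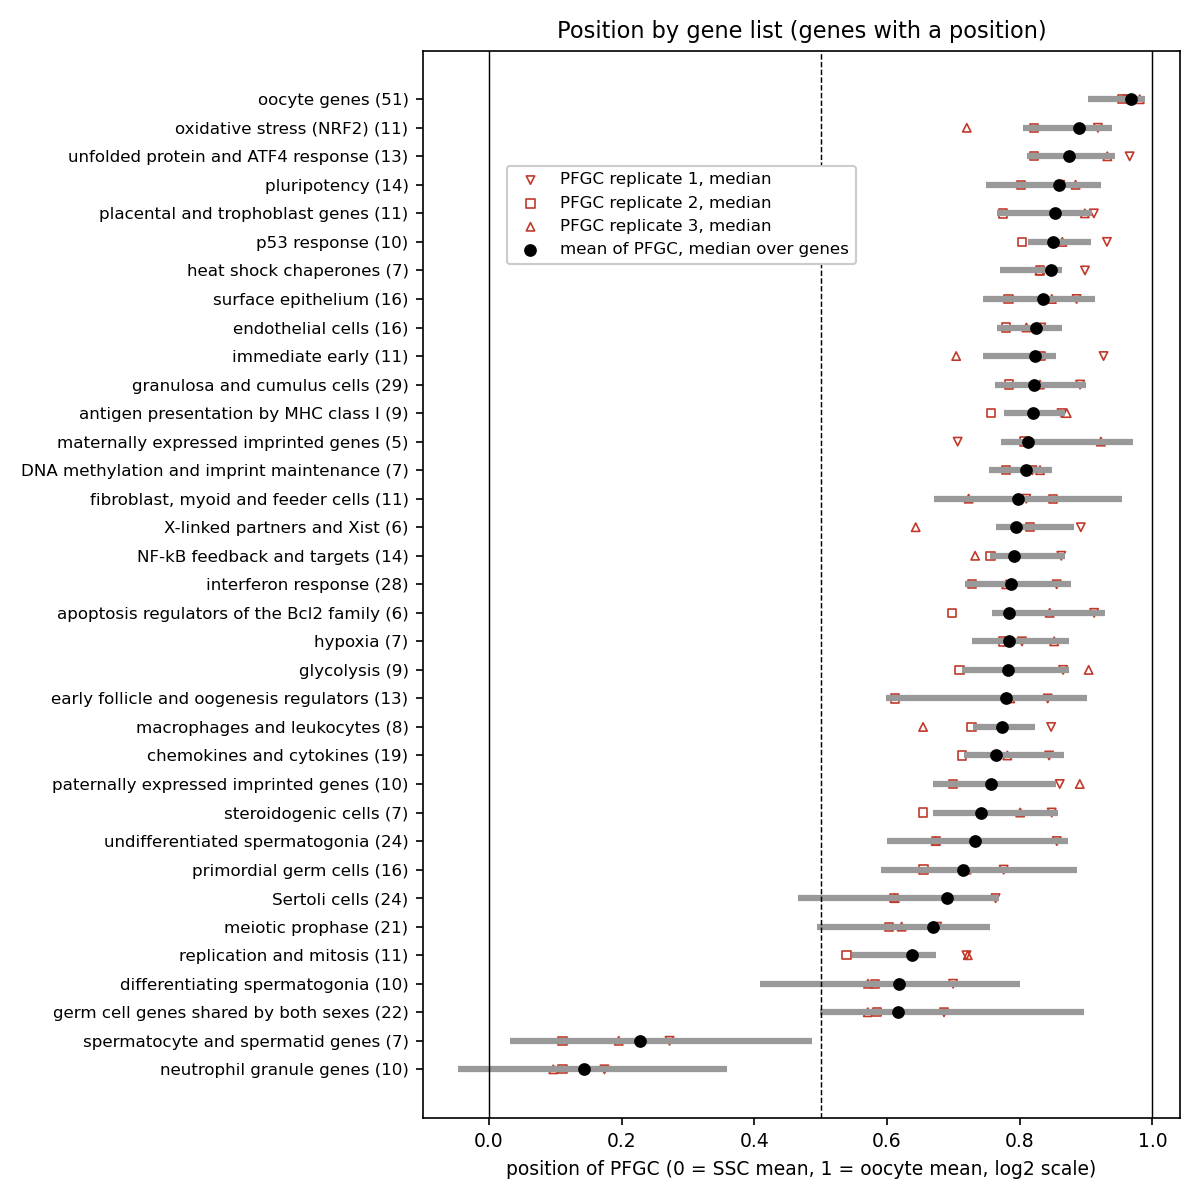
Median position of PFGC over the genes of each list, 0 being the SSC mean and 1 the oocyte mean on the log2 scale, with the quartiles as grey bars, each PFGC array as an open symbol and the number of positioned genes in brackets. Oocyte genes sit at 0.97, the other lists between 0.62 and 0.89, and spermatocyte and spermatid genes at 0.23 and neutrophil granule genes at 0.14 sit lowest.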

How the data were processed

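Illumina bead arrays of 9 RNA samples were read as the deposited table of probe intensity, not normalised, with a detection p-value per probe that the authors exported from GenomeStudio, per the submitters' processing notes. The authors' own processed table was used as an alternative. Intensities were background-corrected with limma 3.58.1 in R 4.3.3 (normexp, control spread inferred from the detection p-values, offset 16), quantile normalised and taken to log2. Probes with detection p under 0.01 on at least 3 arrays were kept (19934), and the brightest probe stood for each gene. Of 45281 probes, 34885 have 1 symbol in the platform annotation, 18 several and 10378 none. A linear model with 3 groups gave each contrast, with empirical Bayes errors and Benjamini-Hochberg adjustment over 11077 genes, the threshold being 0.05. It was tested on simulated data. The number of arrays limits the precision. Position is (PFGC minus SSC) over (oocytes minus SSC). Named genes were the furthest outside among genes whose PFGC arrays overlapped neither group, the largest departures and fixed list members. The members and the 41 lists were chosen with earlier results of these data known. The main fit had no block, and replicate numbers served as a block in an alternative fit. Deviations of same-numbered arrays correlated at 0.131 to 0.575 in 9 of 9 pairs. Arrays numbered 1 and 2 also correlated across numbers, at 0.0442 to 0.246. Arrays numbered 3 stood apart from both, at -0.442 to -0.181. The numbers are thus not shown to pair arrays.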

Additional observations from a re-analysis of the deposited data

How the results depend on the processing

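The counts moved most with the arrays used and the error model. Leaving out 1 array gave 1441 to 2638 departures from the midpoint, 4976 to 5802 genes apart from SSC and 530 to 1676 apart from oocytes. The classes ran over 46 to 244 genes above both, 5 to 38 below, 348 to 1047 between, 4158 to 5114 at the oocyte end and 120 to 499 at the SSC end. Individually, 573 genes were apart from oocytes without oocyte replicate 1, 599 without oocyte replicate 2, 895 without oocyte replicate 3, 530 without PFGC replicate 2 and 798 without PFGC replicate 3. With the replicate block 2334 genes differed from oocytes, 143 lay above both, 101 below, 1450 between and 640 at the SSC end. With array weights the counts were 2878 apart from oocytes, 235 above, 119 below, 1705 between and 819 at the SSC end. No normalisation gave 55 above and 52 below, probes detected on all 9 arrays 1581 departures and 53 above, the mean of probes 41 below, and every kept probe on its own 47 below and 7251 at the oocyte end. Chosen after seeing the data, the fits without the arrays numbered 1 gave 607 departures, 3712 apart from SSC, 273 apart from oocytes, 25 above, 1 below, 204 between and 43 at the SSC end. Without those numbered 2 they gave 1407, 423 apart from oocytes, 150 above, 1 below, 194 between and 78 at the SSC end, and without those numbered 3, 219 at the SSC end. Fewer arrays leave fewer residual degrees of freedom, and the cause of the other shifts was not tested. Of the departures called, 57.9% were upward, 68.4% with cyclic loess, 40.6% without normalisation, which moves the median of all genes to -0.18, 87.5% without the arrays numbered 1, 70.5% without those numbered 2 and 32.6% with the linear midpoint. The linear midpoint turned the departure of Akr1c18 to -0.50, Cmpk2 to -0.32, Crhbp to -0.23, Rnase1 to -0.13, Sprr1a to -0.10, Nr1h4 to -0.0338, Defb36 to -1.26, Cst9 to -1.46, Taf7l to -1.84, Cstdc1 to -1.13, Usp18 to -0.0291, Ifit3 to -0.0835, Psmb8 to -0.0118 and Tex101 to -0.29, and Taf7l was -0.0460 without background correction and in the authors' processed values. Of 84 genes above both, 34 held in each of 21 settings with 1 value per gene in which they were tested, and of 23 below both, 0. At most 25 of the 84 can have held if the fits without same-numbered arrays are added, since 25 did without the arrays numbered 1. The slide as a block was not run, because the headers name no slide.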
